A study of Mus musculus with 6 samples.

Results

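The retinoblastoma family, the pocket proteins, was followed here through every probe set of its 3 genes: Rb1, which encodes pRb, Rbl1, which encodes p107, and Rbl2, which encodes p130. On an Affymetrix array each transcript is read by a probe set, several short probes whose signals are combined. All probe sets annotated with 1 of these symbols alone were taken, which gave 8 of the 45037 non-control probe sets on the array: 2 for Rb1, 4 for Rbl1 and 2 for Rbl2, the 3 being among 18194 genes measured. No probe set that carried several symbols named any of the 3 genes.

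RNA was measured in pRb-deficient and pRb-expressing MC3T3 osteoblasts, calvarial bone cells of embryonic day 18.5 mice that were immortalized by serial passage (3T3 protocol), with 3 cultures of each kind and 1 array per culture. The labels call the pRb-deficient cultures Rb Knockout and the pRb-expressing cultures Wild type. The mice descended from a cross of flox19-RB1 mice, kept on a C57BL/6 background, with mice of the 2.3- and 3.6-Col1a1-Cre transgenes, whose strain is not given. In these transgenes, Cre is driven by fragments of the type I collagen promoter that is active in osteoblasts. Which of these transgenes each culture carried, and whether the control littermates carried Cre or a floxed allele, is not given in the sources used here. The labels call the cultures biological replicates without naming the line or animal behind each. The p-values therefore speak of the scatter among these 6 cultures only, and part of that scatter may be technical. An effect of pRb status and one of the line a culture came from cannot be told apart.

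Pocket proteins share a folded domain, the pocket, that binds E2F transcription factors and proteins that close chromatin. Unphosphorylated pocket proteins hold E2F target genes silent, and cyclin-dependent kinases release that hold by phosphorylating them before DNA replication. pRb mainly binds the activating E2Fs, while p107 and p130 bind the repressive E2Fs and join the MuvB proteins in the DREAM complex, which silences cell cycle genes in resting cells. The 3 genes are expressed differently over the cell cycle, p130 being the main pocket protein of quiescent cells and p107 that of cycling cells. In bone, pRb is also known as a partner of the osteoblast transcription factor RUNX2, and its gene is often lost in osteosarcoma.

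RefSeq promoter sequences (build GRCm38.p6, from 250 bases before to 50 bases after the annotated start) were matched for Rbl1 and Rbl2, and they are shown because Rbl1 is itself a known E2F target. Capitals mark matches, on either strand, to an E2F word (TTTCCCGC, TTTCGCGC, TTTGCCGC or TTTGGCGC) or to the cell cycle homology region word TTTGAA, which is the DREAM-bound element of many cell cycle genes. The Rbl1 window lies at chr2:157204485-157204784 on the minus strand and the Rbl2 window at chr8:91069807-91070106 on the plus strand.
Rbl1: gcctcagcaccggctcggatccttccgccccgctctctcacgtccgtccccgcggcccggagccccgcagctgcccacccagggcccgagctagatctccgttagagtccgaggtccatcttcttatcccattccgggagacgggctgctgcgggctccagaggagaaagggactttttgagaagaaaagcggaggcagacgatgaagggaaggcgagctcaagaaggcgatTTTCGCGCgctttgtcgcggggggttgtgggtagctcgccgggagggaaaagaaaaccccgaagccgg
Rbl2: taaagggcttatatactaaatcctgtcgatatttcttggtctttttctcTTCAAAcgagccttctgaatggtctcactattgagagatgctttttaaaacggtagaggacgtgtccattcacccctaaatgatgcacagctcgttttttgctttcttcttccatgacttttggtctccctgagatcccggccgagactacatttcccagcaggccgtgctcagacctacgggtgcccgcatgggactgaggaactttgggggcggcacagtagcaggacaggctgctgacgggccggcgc
The Rbl1 window held 1 E2F word, TTTCGCGC, which begins 18 bases before the annotated start, and no cell cycle homology region word. The Rbl2 window held no E2F word and 1 cell cycle homology region word, read on the opposite strand as TTCAAA, which begins 201 bases before the annotated start. These words do not overlap one another. Of 32851 promoter windows of this length, 2.26% held an E2F word and 17.9% the cell cycle homology region word. A match is a run of letters and not a measured binding site.

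Of the 3 genes, Rb1 changed most. Its signal in probe set 1417850_at, which the annotation pairs with the RefSeq mRNA of Rb1, was 143.1, 127.1 and 123.5 in the pRb-deficient cultures, against 1123.7, 1118.6 and 1105.9 in the pRb-expressing cultures. Every pRb-deficient value lay far below every pRb-expressing value, and the arrays of a group lay close together. The signals are MAS5 intensities on a linear scale, which the authors scaled to the same trimmed mean on every array. The means were 131 ± 10.4 in pRb-deficient and 1116 ± 9.17 in pRb-expressing cultures (SD, n = 3 each), so that 11.8% of the signal was left. The log2 fold change, given throughout as pRb-deficient over pRb-expressing, was −3.09 (standard error 0.10, 95% interval −3.34 to −2.84, adjusted p = 4.94e-06 from limma), which is 8.52-fold lower on geometric means.

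The position of the probes against the floxed exon was not examined, and the signal is therefore no direct test of the deletion. The pRb-deficient values were not near the bottom of the array: from 52.8% to 54.0% of all probe sets had a signal at or below that of Rb1 on the 3 pRb-deficient arrays, and from 85.2% to 85.6% on the pRb-expressing arrays. Whether what remained was Rb1 transcript or background of the probes cannot be told apart from these signals. The other Rb1 probe set, 1444400_at, was designed on a single sequence tag. It had signals of 1.6, 10.3 and 1.6 in pRb-deficient and of 1.2, 1.3 and 4.5 in pRb-expressing cultures. All 6 lie under 32, the value below which signals were treated as background, so this probe set was not tested and bears on neither group.

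**Figure D1:**
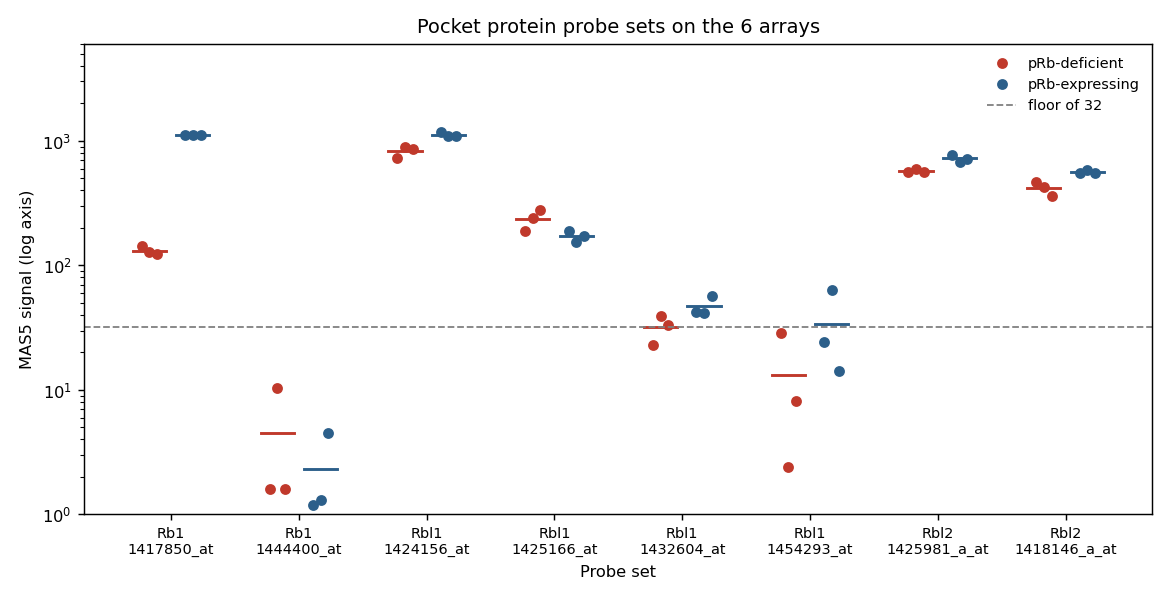
MAS5 signal (y axis, log scale) of the 8 probe sets of Rb1, Rbl1 and Rbl2 (x axis) with 1 point per culture, a bar at each group mean and a dashed line at the floor of 32. Rb1 1417850_at is split widely between groups, Rbl1 1425166_at is the 1 probe set whose pRb-deficient values all lie above the pRb-expressing values, and 3 probe sets lie near or under the floor.

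The genes for p107 and p130 were lower in pRb-deficient cultures in their brightest probe sets, by far less than Rb1. Of the 7 pocket protein probe sets tested, 4 were lower at an adjusted p under 0.05 (1 of Rb1, 1 of Rbl1 and both of Rbl2), none was higher and 3 did not pass. Over all 38427 probe sets tested, 35.0% passed in either direction and 18.8% passed as lower. The median log2 fold change was −0.41 for the 7 probe sets and −0.06 for all those tested. The 7 include Rb1 itself and several probe sets of the same gene. Their median is the value of Rbl1 1432604_at, a dim probe set that did not pass. Of the 8 probe sets, 6 had groups that did not overlap, against 43.0% of all probe sets on the array.

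Rbl1 encodes p107, whose own gene is a known E2F target. In its brightest probe set, 1424156_at, the signal was 729.0, 886.5 and 858.0 in pRb-deficient cultures, against 1182.3, 1089.7 and 1094.5 in pRb-expressing cultures. The groups did not overlap, and the first pRb-deficient culture was the lowest. The means were 825 ± 83.9 in pRb-deficient and 1122 ± 52.1 in pRb-expressing cultures (SD, n = 3 each), and the log2 fold change was −0.45 (standard error 0.10, 95% interval −0.68 to −0.22, adjusted p = 0.0102 from limma). This change was no longer called once the median change of chromosome 2 was removed (log2 fold change −0.22, adjusted p = 0.123 from limma).

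A further Rbl1 probe set ran the other way. Probe set 1425166_at, which the annotation pairs with a different mRNA record of the same gene, had signals of 189.5, 238.7 and 276.4 in pRb-deficient cultures, against 188.7, 154.6 and 173.3 in pRb-expressing cultures. All 3 pRb-deficient values were the higher ones, the closest pair of the groups being 189.5 and 188.7. The means were 235 ± 43.6 in pRb-deficient and 172 ± 17.1 in pRb-expressing cultures (SD, n = 3 each), and the log2 fold change of 0.44 (standard error 0.19, 95% interval −0.01 to 0.89) did not pass (adjusted p = 0.127 from limma). It passed as higher without the first pRb-deficient culture (log2 fold change 0.58, adjusted p = 0.0439), with array quality weights (0.45, adjusted p = 0.0225) and with the chromosome median removed (0.66, adjusted p = 0.0358).

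The unequal change of these Rbl1 probe sets was compared within each array, which leaves out anything that scales a whole array. The log2 ratio of 1424156_at over 1425166_at was 1.94, 1.89 and 1.63 in pRb-deficient cultures, against 2.65, 2.82 and 2.66 in pRb-expressing cultures. The ratio was lower in all 3 pRb-deficient cultures, by 0.88 on average (1.82 ± 0.17 in pRb-deficient and 2.71 ± 0.09 in pRb-expressing cultures, SD, n = 3 each). An exact two-sided permutation test gave p = 0.10, the smallest that 3 against 3 cultures allow, and 0.233 after adjustment over the 7 pairs of probe sets compared, so this test could not have passed 0.05 for the ratio. No other test of the ratio was run. Among 15523 pairs of probe sets of the same gene with a mean signal of at least 100 each, 34.5% had ratios that did not overlap between groups, and 8.36% differed by as much as the Rbl1 pair. Which Rbl1 transcripts each probe set detects was not examined.

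The remaining Rbl1 probe sets were dim. Probe set 1432604_at had signals of 22.8, 39.4 and 33.3 in pRb-deficient and of 42.4, 41.3 and 56.8 in pRb-expressing cultures, a log2 fold change of −0.41 on floored values (95% interval −0.82 to −0.01, adjusted p = 0.111 from limma). Its groups did not overlap, but all values lay within or near the range treated as background. Probe set 1454293_at was above 32 on 1 array alone, at 63.8 in a pRb-expressing culture, and its groups overlapped (log2 fold change −0.33, adjusted p = 0.411 from limma).

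**Figure D2:**
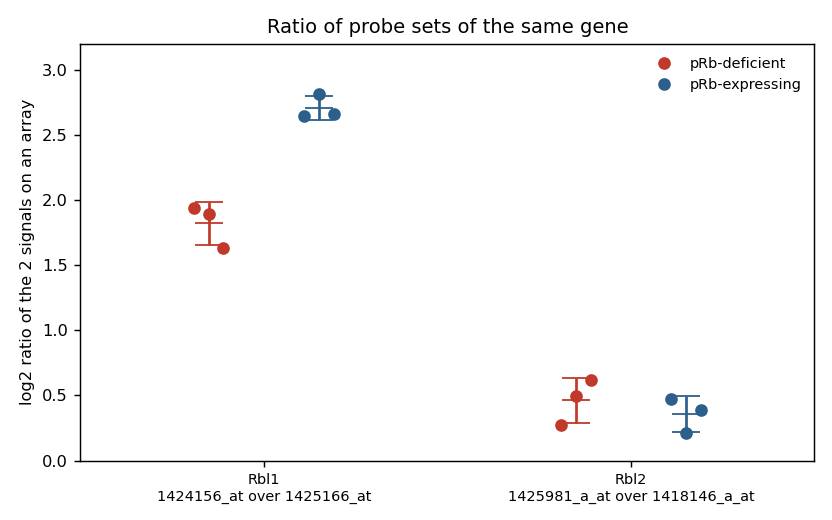
Log2 ratio of the signals of 2 probe sets of the same gene on each array (y axis) for Rbl1 and Rbl2 (x axis), as points, with the mean and SD of 3 cultures. For Rbl1 the pRb-deficient ratios, 1.63 to 1.94, all lie under the pRb-expressing ratios, 2.65 to 2.82, and for Rbl2 the groups overlap.

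Rbl2 encodes p130, the pocket protein most tied to quiescence and the DREAM complex. Both of its probe sets are of the kind whose probes are shared by several transcripts of 1 gene, and both were lower in pRb-deficient cultures. In 1425981_a_at the signal was 565.6, 598.1 and 557.4 in pRb-deficient cultures, against 773.4, 675.7 and 720.4 in pRb-expressing cultures. The means were 574 ± 21.5 in pRb-deficient and 723 ± 48.9 in pRb-expressing cultures (SD, n = 3 each). Its log2 fold change was −0.33 (standard error 0.09, 95% interval −0.54 to −0.13, adjusted p = 0.0230 from limma). In 1418146_a_at the signal was 466.9, 425.0 and 362.6 in pRb-deficient cultures, against 556.0, 584.7 and 551.4 in pRb-expressing cultures. The log2 fold change was −0.44 (standard error 0.12, 95% interval −0.71 to −0.16, adjusted p = 0.0244 from limma), and the groups overlapped in neither probe set.

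The pair moved by similar amounts: the log2 ratio of 1425981_a_at over 1418146_a_at differed by 0.11 between groups, which overlapped (exact two-sided permutation p = 0.4, n = 3 each). The Rbl2 calls lay close to the threshold. For 1425981_a_at the adjusted p rose to 0.0994 with arrays centred on their medians and to 0.0653 with the replicate number as a block. Leaving out single cultures gave adjusted p from 0.0342 to 0.0934 for 1425981_a_at and from 0.0122 to 0.0825 for 1418146_a_at. The calls lost in this way were those of 1425981_a_at without pRb-deficient culture 2 or pRb-expressing culture 1 or 3, and those of 1418146_a_at without pRb-deficient culture 2 or any 1 of the pRb-expressing cultures. Both probe sets were lower in pRb-deficient cultures under every setting tried.

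**Figure D3:**
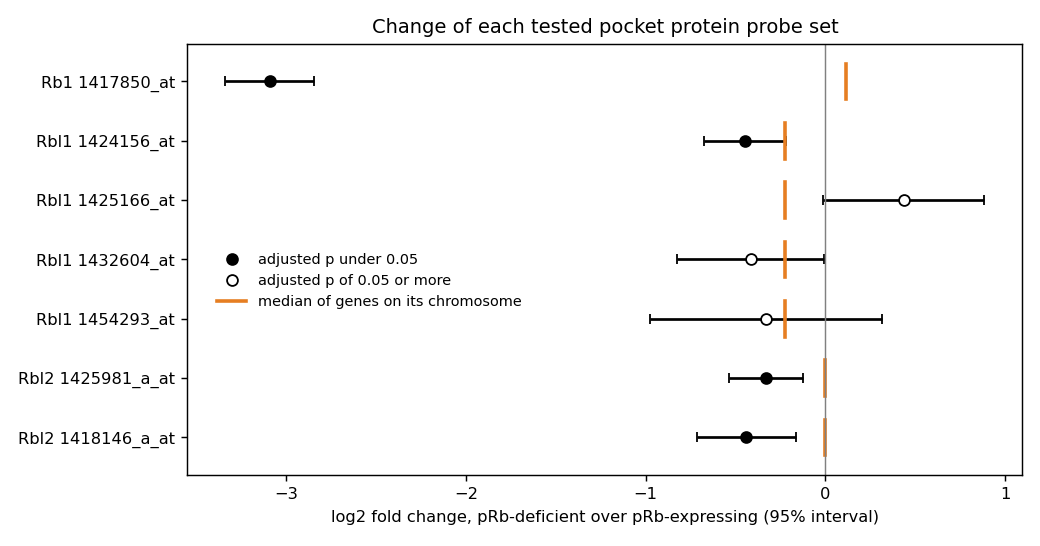
Log2 fold change of the 7 tested probe sets, pRb-deficient over pRb-expressing (x axis), with 95% intervals, filled where the adjusted p was under 0.05, and the median change of the genes on the same chromosome as an orange mark. Rb1 1417850_at, at −3.09, lies far from chromosome 14, whereas Rbl1 1424156_at, at −0.45, has an interval that reaches the median of chromosome 2.

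Each gene was set beside the other genes of its own chromosome, with 1 probe set per gene, the brightest. Rb1 lies on chromosome 14, whose 570 tested genes had a median log2 fold change of 0.12, with 29.1% called higher and 12.6% called lower. Rb1 thus went against its chromosome, and 4 of the 570 genes, Rb1 included, fell as far or further. Among all 16308 genes tested, 41.9% were called in either direction and 0.675% fell as far as Rb1 or further. Rbl1 lies on chromosome 2, where the median of 1271 genes was −0.22, 31.4% being called lower and 8.97% higher. On that chromosome 32.1% of the genes fell as far as Rbl1 in its brightest probe set, or further. Rbl2 lies on chromosome 8, where the median of 833 genes was −0.0045, with 13.7% called lower, and 23.9% of them fell as far as Rbl2 or further.

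None of the tested neighbours of Rb1 fell as it did. Among the 10 nearest measured genes in annotated order, 5 on each side, 8 were tested, and their log2 fold changes ran from −0.52 to 0.43 with 1 called higher and 1 lower. Lpar6, a receptor for lysophosphatidic acid, lies inside the Rb1 gene on the plus strand. Its signal was 491 ± 21.2 in pRb-deficient and 459 ± 31.6 in pRb-expressing cultures (SD, n = 3 each), a log2 fold change of 0.10 (95% interval −0.13 to 0.33, adjusted p = 0.488 from limma). Rcbtb2 was the neighbour that fell (−0.52 on the log2 scale, adjusted p = 0.00728 in the limma fit). Med4, a subunit of the Mediator complex that links transcription factors to RNA polymerase, was the one that rose (0.43, adjusted p = 0.00619 from limma). Itm2b, which encodes a BRICHOS membrane protein, gave −0.11 and did not pass.

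Around Rbl1, all 10 neighbours were tested, with 4 lower, 1 higher and a median of −0.43, close to the −0.45 of Rbl1 itself. Samhd1, the dNTP hydrolase gene next to it, had a log2 fold change of −0.59 and Rpn2, of the oligosaccharyltransferase, one of −0.32 (adjusted p = 0.0198 and 0.00851 from limma). The 1 neighbour that rose was the tyrosine kinase gene Src, by 0.93. Around Rbl2, 5 of 10 neighbours were tested, with 4 lower, 1 higher and a median of −0.58, further down than the −0.33 of Rbl2 in its brightest probe set. The lowest were Crnde, at −2.01, and the homeobox gene Irx3, at −1.83. Fto, an RNA demethylase gene, also fell (−0.58). Of the genes directly beside Rbl2, the chromatin remodeler gene Chd9 gave −0.57 and Aktip 0.36 (adjusted p = 0.00580 and 0.0282 from limma).

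**Figure D4:**
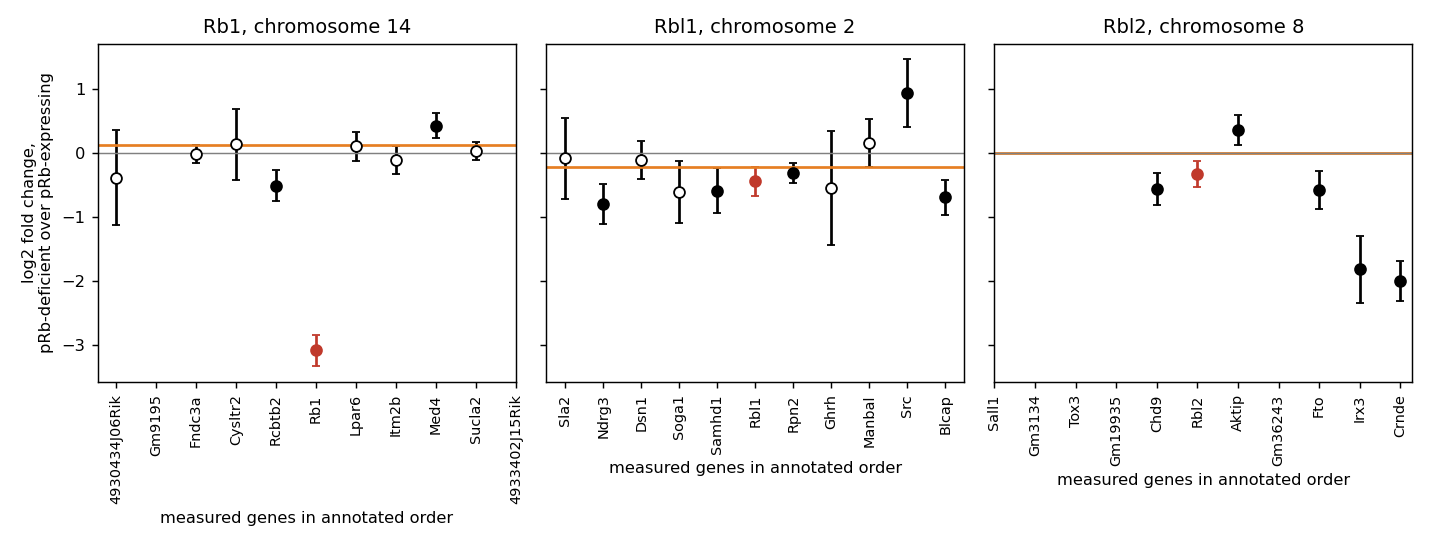
Log2 fold change with 95% interval, pRb-deficient over pRb-expressing (y axis), of Rb1, Rbl1 and Rbl2 (red) and of the 5 measured genes on each side in annotated order (black), filled where the adjusted p was under 0.05, with the chromosome median as an orange line. Names without a point were at or below the floor on all arrays. Rb1 stands apart at −3.09 among neighbours between −0.52 and 0.43, whereas the neighbours of Rbl1 have a median of −0.43.

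Many other genes separated the groups as Rb1 did. Across the 6 arrays, the 3 genes whose log2 signal correlated best with Rb1, among 9676 others with a mean signal of at least 200, were Pigc (Pearson r = 0.9998), Exoc4 (0.9996) and Stau1 (0.9996). For Rbl1 they were Maged1 (0.997), Nelfe (0.994) and Nkap (0.993), and for Rbl2 they were Greb1l (0.994), Nod1 (0.993) and Dbt (0.993). With 2 groups of 3 arrays such values mostly restate the difference between groups, and 2635 genes had an r above 0.9 with Rb1, 1274 with Rbl1 and 1564 with Rbl2.

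The wider pocket protein pathway moved in both directions. Among 75 genes in 7 lists, each by its brightest probe set, 18 passed as higher in pRb-deficient cultures, 12 passed as lower and 45 passed in neither direction, while over all 16308 genes 18.5% passed as higher and 23.4% as lower. The count of lower genes was 27 without pRb-deficient culture 3 and 6 with chromosome medians removed. The median log2 fold change was −0.09 for these genes and −0.09 for all genes tested.

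Among the direct partners, 3 of 10 E2F and DP genes were higher and 1 was lower. Both DP genes, whose proteins pair with E2Fs to bind DNA, were among the higher ones: Tfdp1 had a signal of 5302 ± 848 in pRb-deficient and 3837 ± 178 in pRb-expressing cultures, and Tfdp2 one of 721 ± 35.3 in pRb-deficient and 561 ± 21.8 in pRb-expressing cultures (SD, n = 3 each). E2f2, an activating E2F, was the lower one, close to the threshold (adjusted p = 0.0429 from limma). Its signal was dim, at 65.5 ± 0.404 in pRb-deficient and 97.5 ± 10.3 in pRb-expressing cultures (SD, n = 3 each). Of 7 MuvB and DREAM genes, 2 were higher and none was lower. Rbbp4, the histone chaperone of that complex, rose by 0.56 and Lin54, its DNA-binding subunit, by 0.67 (adjusted p = 0.000506 and 0.0232 from limma). Lin9, a MuvB scaffold protein gene, gave −0.60 and did not pass (adjusted p = 0.146).

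Of 9 genes for the cyclins and kinases that phosphorylate pocket proteins, 3 were lower and 1 was higher. Ccnd2, cyclin D2, had a signal of 3847 ± 656 in pRb-deficient and 11122 ± 492 in pRb-expressing cultures (SD, n = 3 each), a log2 fold change of −1.54, and Ccnd1, cyclin D1, fell by 0.57. Their kinase gene Cdk4 rose by 0.40 (adjusted p = 0.00190 from limma). Among 7 inhibitors of these kinases, 3 were higher and 2 were lower. Cdkn2b, which encodes p15, was at or below the floor in all pRb-expressing cultures and had 4041 ± 810 in pRb-deficient cultures (SD, n = 3), at least 124-fold higher on geometric means against the floor. Cdkn2c, which encodes p18, rose by 1.17 on the log2 scale, and Cdkn1a, which encodes p21, fell by 2.13. Of 17 genes for corepressors, chromatin proteins and phosphatases that bind the pocket, 6 were higher and 2 were lower. Sin3a rose by 0.56, the maintenance DNA methyltransferase gene Dnmt1 rose by 0.54, and the chromatin remodeler gene Smarca2 fell by 0.87.

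Genes under E2F control and genes of cell division did not move one way. Of 16 E2F target genes of DNA replication, 2 rose, 3 fell and the other 11 did not pass, with a median log2 fold change of −0.36. Cdt1, which licenses replication origins, rose by 0.63 and Mcm7, of the replicative helicase, by 0.74, whereas Cdc6, which loads that helicase, fell by 1.30 (adjusted p = 0.000341, 0.000902 and 0.00225 from limma). Of 9 genes of proliferation and mitosis, Cenpa, the centromeric histone, rose by 0.60, Aurkb, a kinase of chromosome segregation, fell by 0.84, and 7 did not pass. The pRb-deficient cultures were uneven in both lists. The summed signal of the E2F targets ran from 40822 to 61980 over pRb-deficient and from 55757 to 56967 over pRb-expressing cultures, and that of the proliferation genes from 14767 to 25936 over pRb-deficient and from 20285 to 20703 over pRb-expressing cultures. The part of this spread in the Rbl1 and Rbl2 values was not tested.

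**Figure D5:**
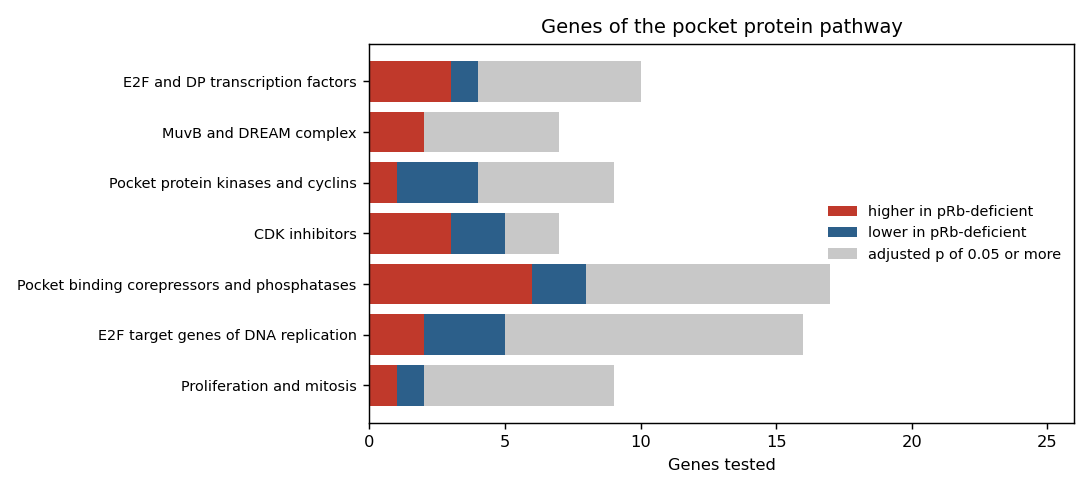
Number of genes tested (x axis) in each of 7 lists of the pocket protein pathway that passed as higher in pRb-deficient cultures, passed as lower or had an adjusted p of 0.05 or more from limma. Every list except that of MuvB and DREAM genes has both a higher and a lower segment, as in the E2F target list with 2 higher and 3 lower of 16.

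Genes with an E2F word in the promoter window were also called in both directions. Among 519 tested genes with an E2F word in a RefSeq promoter window, 20.6% were called higher and 26.2% lower, with a median log2 fold change of −0.09. Among 12429 tested genes whose windows held none, 18.4% were called higher and 24.2% lower, with a median of −0.10. Of 15 listed E2F target genes with a promoter window, 8 held such a word, as Rbl1 did.

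The labelled cell type was checked as well. Of 8 osteoblast markers measured, 7 fell and 1 (Phex) rose in pRb-deficient cultures, and the summed signal of the list ran from 35644 to 47919 in pRb-deficient and from 62198 to 72138 in pRb-expressing cultures. Ibsp and Dmp1, defining genes of the mineralizing osteoblast, were at or below the floor in all pRb-deficient cultures, whereas Col1a1, the main collagen of bone, had a signal of 10945 ± 2388 in pRb-deficient and 18818 ± 1917 in pRb-expressing cultures (SD, n = 3 each). Of 6 mesothelial markers, 3 were higher, with a summed signal from 2712 to 3375 in pRb-deficient and from 167 to 179 in pRb-expressing cultures. Most of the pRb-deficient sum came from Msln (1551 ± 425) and Bnc1 (1271 ± 325, SD, n = 3 each), while Krt19 reached only 53.2 ± 9.87. Upk3b, Wt1 and Lrrn4 gave log2 fold changes of −0.76, −0.09 and −0.44 and did not pass. Of 5 smooth muscle markers tested, 2 were higher and 1 was lower, with a summed signal from 27523 to 32588 in pRb-deficient and from 24280 to 26973 in pRb-expressing cultures. Cnn1, calponin, had 2495 ± 363 in pRb-deficient cultures (SD, n = 3) and was at or below the floor in all pRb-expressing cultures, whereas Myh11, the defining myosin, was at or below it on all arrays. Of 6 hematopoietic markers, Cd14 and Cd68 were higher and none was lower (summed signal from 1663 to 1912 in pRb-deficient and from 968 to 1021 in pRb-expressing cultures), and the pan-leukocyte gene Ptprc was near the floor in both groups. Of 6 chondrocyte markers, 3 were lower and 1, Acan, was higher, with a summed signal from 1772 to 2731 in pRb-deficient and from 2784 to 3593 in pRb-expressing cultures. Endothelial and adipocyte markers, 5 and 4 of which were tested, gave no call. In bulk RNA, fewer cells of a type and less RNA per cell cannot be told apart, and the part of these shifts in the pocket protein values was not tested.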

How the data were processed

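RNA from 3 pRb-deficient and 3 pRb-expressing MC3T3 cultures was labeled with biotin and hybridized by the authors to Affymetrix mouse genome arrays. The deposited intensities are linear MAS5 signals that the authors scaled to a trimmed mean of 500 per array (500.0 on each array when checked over the central values, with medians from 108.0 to 119.9), without detection calls. MAS5 and Affymetrix Expression Console 1.1 are named in the submitters' processing notes. MAS5 subtracts mismatch probes, so low signals are noisy.

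In the array's annotation 34945 probe sets had 1 symbol, 932 had several and 9160 had none. Of those with 1 symbol, 34741 had a gene ID in RefSeq (GRCm38.p6), which was used for names, chromosomes, gene order and promoter sequences, since the study names no build. Control probe sets (64) and those at or below 32 on all arrays were left out, so that 38427 were tested. Values under 32 were set to 32 before the log2 was taken. A linear model of group alone was then fitted to every probe set in limma 3.58.1 (R 4.3.3), with variances moderated along a trend in mean signal, and Benjamini-Hochberg adjustment ran over all probe sets tested. Ratios of probe sets within an array were compared by exact two-sided permutation over the 20 splits. Of these steps, the limma fit alone was tested on simulated data. Signals of 32 or less made up 24.4% to 26.6% of each array, and the number of arrays limits the precision. Probes differ in affinity. The place of a signal among all probe sets of an array and the signals summed over a list are therefore no measure of relative RNA levels between genes.

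The members, the 7 pathway lists, the marker lists and the rule for named genes were chosen with earlier results of these data known. By that rule the text names every probe set of Rb1, Rbl1 and Rbl2. Up to 3 genes per pathway list, those with the lowest adjusted p, are named as well. The rule also covers the 3 genes most like each pocket protein gene over the arrays, the neighbours, and markers of the labelled cell type. Markers of other cell types were named outside that rule. No set test was run. Replicate numbers were treated as names and not as pairing, since deviations from the group means correlated at only 0.02, −0.03 and 0.06 between same-numbered arrays. Alternatives were other floors, a pseudocount, other filters, quantile normalization, median centring, no trend, array weights, a replicate block, removal of chromosome medians, leaving out each array and an exact two-sided rank test per probe set. The study's methods used the Wilcoxon statistic in the SAM software with a permutation false discovery rate, which was not run here.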

Additional observations from a re-analysis of the deposited data

How the results depend on the processing

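The direction of all 7 pocket protein probe sets was the same under every alternative that gave a value. With an exact rank test, whose smallest two-sided p is 0.10 here and which is not the permutation procedure of the study's methods (SAM), the adjusted p was 0.208 for each of the 4 called probe sets, at unchanged log2 fold changes (−3.09 for Rb1 1417850_at, −0.45 for Rbl1 1424156_at, −0.33 and −0.44 for Rbl2 1425981_a_at and 1418146_a_at). It called 0 of 38427 probe sets, also at an unadjusted p under 0.05, where limma called 13433 (16587 unadjusted), and so 0 of the pocket protein probe sets and 0 pathway genes in either direction. Removal of chromosome medians gave −0.22 for Rbl1 1424156_at (no longer called), 0.66 for 1425166_at (called) and 6 lower pathway genes. Array quality weights gave 0.45 for 1425166_at (called) and 29 lower pathway genes, 12 with the plain fit. Median centring gave −0.27 (no longer called) for Rbl2 1425981_a_at. With the replicate number as a block its fold change was −0.33 with an adjusted p of 0.0653, and the pocket protein count was 3. The block changed no other call among these probe sets.

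Leaving out each culture in turn gave −3.16 to −3.05 for Rb1 1417850_at, −0.50 to −0.36 for Rbl1 1424156_at, 0.31 to 0.58 for 1425166_at, −0.38 to −0.28 for Rbl2 1425981_a_at and −0.52 to −0.34 for 1418146_a_at. The count of lower pocket protein probe sets ran from 2 to 4, being 2 without pRb-deficient replicate 2 and without pRb-expressing replicate 1 or 3. Lower pathway genes ran from 8 to 27, the highest without pRb-deficient replicate 3. For the log2 ratio of Rbl1 1424156_at over 1425166_at, the difference between groups (pRb-deficient minus pRb-expressing) ran from −0.94 to −0.79. With the dim Rbl1 probe sets, that difference had no stable direction for some pairs. It ran from −0.20 to 0.0681 for 1424156_at over 1432604_at, from −0.47 to 0.0871 for 1424156_at over 1454293_at and from −0.50 to 0.23 for 1432604_at over 1454293_at. For 1425166_at over 1432604_at and over 1454293_at it was positive under every setting, from 0.69 to 0.98 and from 0.36 to 1.00 with cultures left out. Without a floor the unstable pairs gave 0.13, 1.31 and 1.18, in the order above, and 1425166_at over 1454293_at gave 2.20. With a floor of 100, 1424156_at and 1425166_at over 1432604_at gave −0.45 and 0.44. Both dim probe sets were then at the floor on all arrays, so these are the changes of 1424156_at and 1425166_at alone. The median of chromosome 8 was 0.0374 over all probe sets and 0.0557 with median centring.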
